A study of Homo sapiens with 12 samples.

Results

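Genes of cholesterol and fatty acid synthesis were examined on 12 arrays of U-HO1 and L-1236, both established lines of Hodgkin lymphoma. The set was a list of 34 gene symbols, and a gene entered through a probe set annotated with that symbol alone. Where several probe sets qualified, the brightest of them, by its mean level on all arrays, stood for the gene. In this way 32 of the 34 genes were found, among 18404 genes in all. HSD17B7, a sterol reductase, has a probe set that is also annotated with its pseudogene and was left out. FDFT1 was not analysed here. The 4 groups of 3 arrays were U-HO1 transduced with an shRNA against GATA-3 (labelled siGATA-3), U-HO1 with a non-functional control shRNA (labelled siSCR), and the same pair of treatments in L-1236. All groups shared the transduction, 3 days of culture, the sort for GFP, and the amplification of RNA from 25000 sorted cells per sample. They also shared 10% serum and the same concentration of glutamine in the medium. U-HO1 was kept in IMDM and L-1236 in RPMI 1640, so line and medium cannot be told apart in what follows. Each line stands for 1 tumour. The values are the authors' deposited log2 values per probe set, and a change of RNA per cell cannot be told apart from a change in the share of cells that express a gene.

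Cells make cholesterol from acetyl-CoA through the mevalonate pathway, and fatty acids from the same precursor through acetyl-CoA carboxylase and fatty acid synthase. The genes of both routes are switched on by the sterol regulatory element binding proteins (SREBPs), membrane-bound transcription factors that the escort protein SCAP carries to the Golgi for release when sterols are low. The INSIG proteins hold SCAP back in the endoplasmic reticulum when sterols are high, and INSIG1 is itself an SREBP target. Sterol efflux genes such as ABCA1 and ABCG1 are instead targets of the oxysterol-sensing LXR receptors. Lymphoid cells that divide depend on this supply for new membrane.

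Several facts of the arrays bear on these genes. The medians of the arrays ranged from 6.96 to 7.09 (log2), and arrays of the same line correlated at 0.986 to 0.995 across probe sets. The 7 Hodgkin line markers examined had mean levels of 9.03 to 12.10 in U-HO1 and 7.06 to 11.46 in L-1236, while the 4 T-cell markers measured stayed at 5.95 to 6.44 in U-HO1 and 5.90 to 6.34 in L-1236. The 4 B-cell identity genes measured lay between 5.79 and 6.87 in U-HO1, and between 5.72 and 8.96 in L-1236, where CD22 was the highest. The 5 monocyte or macrophage genes reached 9.61 in U-HO1, through CD68, a lysosomal protein, and 7.44 in L-1236. GATA3, the target of the shRNA, was not lower on every array labelled siGATA-3: it averaged 10.47 ± 0.52 on siGATA-3 arrays and 10.79 ± 0.51 on siSCR arrays of U-HO1, and 10.34 ± 0.41 on siGATA-3 arrays and 10.31 ± 0.37 on siSCR arrays of L-1236 (SD, n = 3). By an exact permutation test, two-sided, p was 0.5 for U-HO1 and 0.9 for L-1236, with 0.1 the smallest p that 3 arrays against 3 can give. Arrays are therefore called by their labels. The study describes the 3 samples of a group as independent without saying whether they were separate cultures, and the p-values rest on the spread among them.

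**Figure D1:**
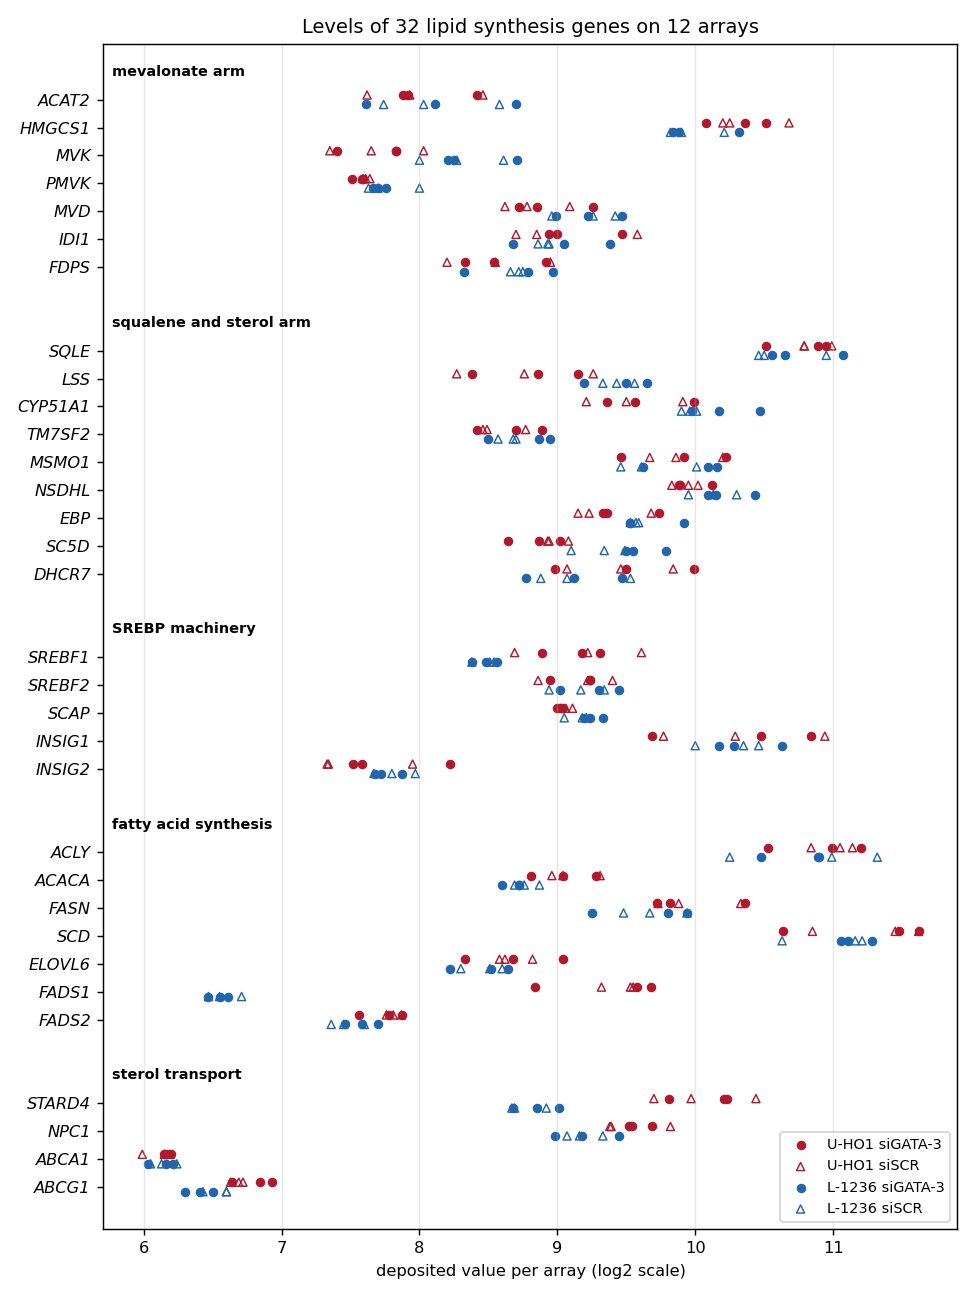
Level of each of the 32 genes on each of the 12 arrays (x axis, deposited log2 value), grouped by role down the page; red marks U-HO1, blue marks L-1236, filled circles are siGATA-3 arrays and open triangles are siSCR arrays. FADS1 and STARD4 show the widest gap between the lines, the U-HO1 arrays of FADS1 lying at 8.84 to 9.68 and those of L-1236 at 6.47 to 6.71.

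Between the lines, U-HO1 expressed the fatty acid desaturase FADS1 and the sterol carrier STARD4 at a higher level than L-1236 by 7.26-fold and 2.39-fold. The transcription factor gene SREBF1 was 1.6-fold higher. MVK and LSS, an early and a late enzyme of cholesterol synthesis, were each 1.58-fold lower in U-HO1. Each line was represented by its 6 arrays, averaged over both shRNA labels, and tested by limma with Benjamini-Hochberg adjustment over all 32321 probe sets. Of the 32 genes, 14 had an adjusted p under 0.05 against 35.1% of all probe sets, 8 of them higher in U-HO1 (18.0% of all probe sets) and 6 lower (17.1%). A fold of at least 1.5 as well was met by 5 of the 32, against 13.0% of all probe sets, with 3 higher (6.76%) and 2 lower (6.22%). These counts stand beside a background in which the lines differ at many genes. The set's median log2 difference was 0.04, against 0.02 for all probe sets. The 6 arrays of U-HO1 and the 6 of L-1236 did not overlap for 5 of the 32 genes, FADS1, STARD4, SREBF1, ABCG1 and SC5D, against 23.3% of all probe sets. Without the U-HO1 arrays of replicate number 3, on which most of the set was high (described further on, and a choice made after seeing the data), 13 genes were called, 5 higher and 8 lower. The share of all probe sets called in that fit is not given here, so the changed counts are not read as particular to the set. FADS1, STARD4, SREBF1, MVK and LSS kept their calls there, with log2 differences of 2.76, 1.12, 0.52, -0.78 and -0.87.

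**Figure D2:**
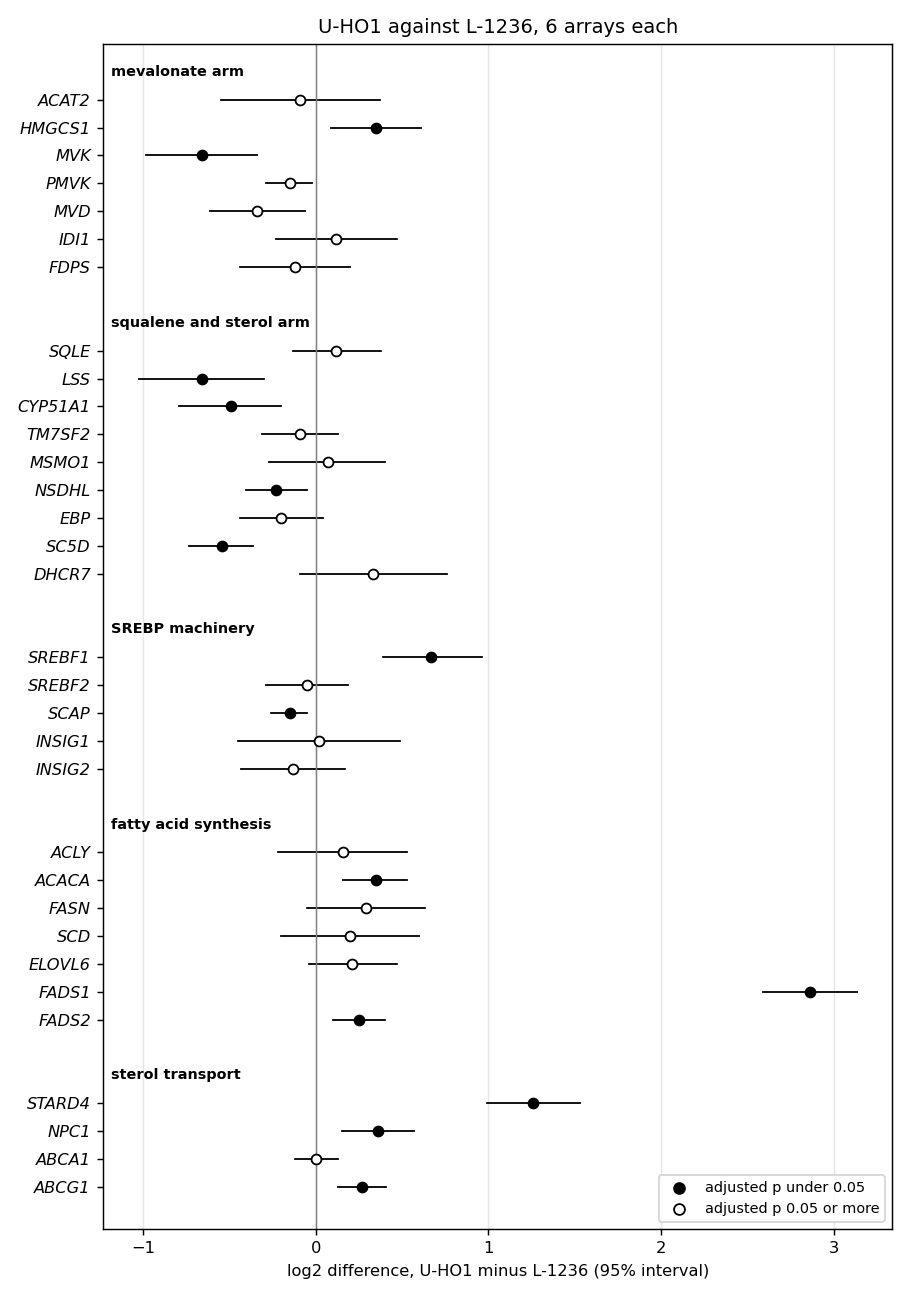
Log2 difference of each gene between U-HO1 and L-1236 (x axis, U-HO1 minus L-1236, 6 arrays each) with its 95% interval from limma; filled points had an adjusted p under 0.05. Fatty acid synthesis genes all lie right of 0, from 0.16 to 2.86, while the called genes of the squalene and sterol arm all lie left of 0.

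The mevalonate arm builds isoprenoid units from acetyl-CoA. Of its 7 measured genes, 1 was higher in U-HO1 (18.0% of all probe sets), 1 was lower (17.1%) and 5 did not pass the test, with a median log2 difference of -0.12. HMGCS1, the HMG-CoA synthase of the arm, read 10.08, 10.30 and 10.68 (lowest, median and highest of 6 arrays) in U-HO1 and 9.82, 9.89 and 10.32 in L-1236. The lines overlapped, and the difference of 0.35 (SE 0.12) had an adjusted p of 0.039. That call was lost in 7 of the 12 fits that left out 1 array: U-HO1 siGATA-3 replicate 1 or 3, U-HO1 siSCR replicate 3, L-1236 siGATA-3 replicate 1 or 2, or L-1236 siSCR replicate 1 or 3. The log2 differences over all 12 were 0.28 to 0.43, and 0.23 without the U-HO1 arrays of replicate number 3 (adjusted p = 0.19 by limma). MVK, mevalonate kinase, read 7.35, 7.74 and 8.03 in U-HO1 and 8.0, 8.26 and 8.71 in L-1236. Its lines overlapped at the edge only, and the difference was -0.66 (SE 0.15, adjusted p = 0.0032). The other phosphorylating and decarboxylating enzymes, PMVK and MVD, had differences of -0.15 and -0.34 that did not pass (adjusted p = 0.0809 and 0.0554). ACAT2, IDI1 and FDPS, which supply acetoacetyl-CoA, isomerise the isoprenoid unit and join the units to farnesyl diphosphate, differed by -0.09, 0.12 and -0.12 and did not pass either.

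The squalene and sterol arm closes the ring system and trims it to cholesterol. Of 9 measured genes none was called higher in U-HO1 (18.0% of all probe sets), 4 were lower (17.1%) and 5 did not pass, with a median of -0.20. SQLE, squalene monooxygenase, a slow step of the pathway, was among the brightest genes of the set. It read 10.51, 10.84 and 10.99 in U-HO1 and 10.46, 10.61 and 11.07 in L-1236, and the difference of 0.12 (95% interval from -0.13 to 0.38) did not pass. LSS, lanosterol synthase, which forms the ring system in the next step, read 8.27, 8.81 and 9.26 in U-HO1 and 9.19, 9.46 and 9.65 in L-1236. Its ranges overlapped through 1 U-HO1 array, siSCR replicate 3 at 9.26, and the difference was -0.66 (SE 0.17, adjusted p = 0.0076). CYP51A1, the lanosterol demethylase, was 1.41-fold lower (log2 -0.49, SE 0.13, adjusted p = 0.0117) by its brighter probe set. A dimmer probe set of CYP51A1 averaged 7.32 ± 0.12 in U-HO1 and 7.22 ± 0.21 in L-1236 (SD, n = 6), a difference of 0.10 that did not pass (adjusted p = 0.49), so the call rests on 1 of 2 probe sets. SC5D, a sterol desaturase near the end of the pathway, was 1.46-fold lower, at 8.64, 8.94 and 9.08 in U-HO1 and 9.10, 9.50 and 9.79 in L-1236 (log2 -0.54, SE 0.09, adjusted p = 0.000308). All its U-HO1 arrays lay below all its L-1236 arrays. NSDHL, which removes the methyl groups together with MSMO1, was 1.17-fold lower at an adjusted p of 0.0486, a call lost in 8 of the 12 fits that left out 1 array, those without replicate 1 or 2 of either label in U-HO1, or replicate 2 or 3 of either label in L-1236. The last reductase DHCR7, the isomerase EBP, the reductase TM7SF2 and MSMO1 differed by 0.33, -0.20, -0.09 and 0.07, and none of them passed.

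Of the 5 regulators of the pathway measured, 1 was higher in U-HO1 (18.0% of all probe sets), 1 was lower (17.1%) and 3 did not pass. SREBF1, which encodes the SREBP best known for driving fatty acid synthesis, read 8.69, 9.20 and 9.61 in U-HO1 and 8.38, 8.49 and 8.56 in L-1236. No U-HO1 array fell within the range of L-1236, and the difference was 0.67 (SE 0.13, adjusted p = 0.00128). SREBF2, which encodes the SREBP best known for driving cholesterol synthesis, read 8.86, 9.23 and 9.40 in U-HO1 and 8.94, 9.24 and 9.45 in L-1236. Its difference was -0.05 with a 95% interval from -0.29 to 0.19. INSIG1 averaged 10.33 ± 0.53 in U-HO1 and 10.31 ± 0.22 in L-1236 (SD, n = 6), a difference of 0.02 with an interval from -0.45 to 0.49. INSIG2 differed by -0.13 without passing. SCAP was 1.11-fold lower, at 9.04 ± 0.04 in U-HO1 and 9.20 ± 0.09 in L-1236 (adjusted p = 0.0243), a call lost in 4 of the 12 fits that left out 1 array, those without U-HO1 siGATA-3 replicate 1, L-1236 siGATA-3 replicate 1 or L-1236 siSCR replicate 2 or 3.

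All 7 fatty acid synthesis genes had a positive difference, as had 55.1% of all probe sets. Of the 7, 3 were called higher in U-HO1, against 18.0% of all probe sets, and the median was 0.25. FADS1, a desaturase that makes polyunsaturated fatty acids such as arachidonic acid, read 8.84, 9.54 and 9.68 in U-HO1 and 6.47, 6.55 and 6.71 in L-1236. The groups were far apart, and the log2 difference was 2.86 (SE 0.12, 95% interval from 2.59 to 3.13, adjusted p = 3.99e-09). The L-1236 level lay below the array median, and no background level comes with these values, so 7.26-fold is a ratio of measured values. FADS2, the partner desaturase that acts before it, read 7.56, 7.80 and 7.87 in U-HO1 and 7.36, 7.52 and 7.70 in L-1236. That was a difference of 0.25 (SE 0.07, adjusted p = 0.0132), or 1.19-fold. ACACA, the acetyl-CoA carboxylase that commits carbon to fatty acids, was 1.27-fold higher, at 9.07 ± 0.19 in U-HO1 and 8.73 ± 0.09 in L-1236 (SD, n = 6, adjusted p = 0.00595). FASN, fatty acid synthase, read 9.72, 9.85 and 10.36 in U-HO1 and 9.25, 9.73 and 9.94 in L-1236. SCD, the stearoyl-CoA desaturase and the brightest gene of the set, read 10.64, 11.47 and 11.62 in U-HO1 and 10.63, 11.14 and 11.28 in L-1236. The ranges of these last genes overlapped, and their differences of 0.29 (interval from -0.05 to 0.63) and 0.20 (interval from -0.20 to 0.60) did not pass. ACLY, which supplies cytosolic acetyl-CoA, and the elongase ELOVL6 differed by 0.16 and 0.21 without passing.

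The FADS1 difference was set against its surroundings on chromosome 11, a comparison chosen after its value was seen. In the GRCh38.p14 gene table, used for the order of genes only, FADS1 lies beside FADS2 and FADS3 and overlaps FADS2. Of 10 protein-coding genes starting within 250 kb of it, counting FADS1, 9 were measured. FADS3 averaged 9.22 ± 0.07 in U-HO1 and 9.75 ± 0.18 in L-1236, and was 1.44-fold lower (adjusted p = 0.000253). TMEM258 was 1.37-fold lower and DAGLA, a diacylglycerol lipase, 1.69-fold lower (adjusted p = 0.00505 and 2.87e-07). BEST1 was 1.19-fold higher (adjusted p = 0.00437), and FEN1, MYRF and RAB3IL1 had differences of 0.16, -0.10 and 0.05 that did not pass. Among these 9 genes no other difference reached a fold of 2 or more in either direction.

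Of the 4 genes of sterol transport, 3 were called higher in U-HO1, against 18.0% of all probe sets. STARD4, a soluble carrier that moves cholesterol between membranes and is an SREBP target, read 9.70, 10.09 and 10.44 in U-HO1 and 8.67, 8.77 and 9.01 in L-1236. The ranges did not touch, and the difference was 1.26 (SE 0.12, 95% interval from 0.99 to 1.53, adjusted p = 5.28e-06). NPC1, which exports cholesterol from lysosomes, was 1.28-fold higher, at 9.55 ± 0.17 in U-HO1 and 9.19 ± 0.17 in L-1236 (SD, n = 6, adjusted p = 0.0116). The efflux transporter ABCG1 was 1.21-fold higher at a low level, 6.74 ± 0.12 in U-HO1 and 6.47 ± 0.12 in L-1236 (adjusted p = 0.00444). ABCA1, the transporter that loads cholesterol onto apolipoprotein, read 5.99, 6.16 and 6.20 in U-HO1 and 6.03, 6.15 and 6.24 in L-1236. It was the dimmest gene of the set, with 26.8% of probe sets dimmer, and its difference was 0.00 with an interval from -0.12 to 0.13. At such a level neither line is shown to lie above background.

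Of the 14 called genes, 11 were called in all 12 fits that left out 1 array. Fewer arrays gave fewer calls: 5 of the 14 genes also passed on the siSCR arrays alone and 9 on the siGATA-3 arrays alone. FADS1, STARD4, SREBF1 and MVK passed in all of these. LSS kept its direction on either label, at -0.68 and -0.64, with adjusted p = 0.0542 on siSCR arrays and 0.0683 on siGATA-3 arrays.

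Other genes of the pathway, 38 listed and 30 measured, were also read between the lines. Of the 30, 13 were higher in U-HO1 (18.0% of all probe sets), 5 were lower (17.1%) and 12 did not pass, with a median of 0.20. HSD17B12, the reductase of the fatty acid elongation cycle, was 2.95-fold higher, at 10.12 ± 0.18 in U-HO1 and 8.56 ± 0.30 in L-1236 (SD, n = 6, adjusted p = 1.52e-06). ERLIN2, an endoplasmic reticulum protein that takes part in sterol-regulated degradation, was 1.76-fold higher (adjusted p = 3.4e-06), and ACSL1, which activates long-chain fatty acids, 1.68-fold higher (adjusted p = 0.000115). LIPA, the lysosomal acid lipase, was 1.72-fold higher at an adjusted p of 0.0391, with 9.77 ± 0.58 in U-HO1 and 8.98 ± 0.50 in L-1236. Its call was lost in 7 of the 12 fits that left out 1 array (U-HO1 siGATA-3 or siSCR replicate 2 or 3, L-1236 siSCR replicate 1 or 2, L-1236 siGATA-3 replicate 1), with log2 differences of 0.58 to 0.95, and it was 0.46 without the U-HO1 arrays of replicate number 3. MYLIP, a ubiquitin ligase that LXR receptors induce to lower cholesterol uptake, was 2.37-fold lower, at 8.97 ± 0.14 in U-HO1 and 10.21 ± 0.12 in L-1236 (adjusted p = 7.2e-08). LPIN1, a phosphatidate phosphatase, was 1.89-fold lower (adjusted p = 7.63e-05), the sterol reductase LBR 1.57-fold lower (adjusted p = 0.000148), and SOAT1, which esterifies cholesterol for storage, 1.29-fold lower (adjusted p = 0.00271).

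In U-HO1 the genes of the set varied together from array to array, and in L-1236 to a lesser degree. The SD over the 6 arrays of U-HO1 had a median of 0.24 over the 32 genes against 0.11 over all probe sets. In L-1236 the medians were 0.18 and 0.12. In U-HO1, 13 of the 32 genes had an SD above that of 95% of all probe sets, against 3 of the 32 in L-1236. The genes were not matched to probe sets of like level for this, and most of them were brighter than most probe sets. INSIG1 varied most, with an SD larger than that of 99.8% of probe sets in U-HO1. It read 10.48, 9.69 and 10.84 on siGATA-3 replicates 1, 2 and 3 and 9.77, 10.29 and 10.94 on siSCR replicates 1, 2 and 3. The highest array was 2.39-fold above the lowest, and replicate 3 of each label was high while siGATA-3 replicate 2 and siSCR replicate 1 were low. SCD followed the same order at the ends, at 11.48, 10.64 and 11.62 on siGATA-3 and 10.85, 11.45 and 11.62 on siSCR arrays. LSS read 8.86, 8.38 and 9.15 on siGATA-3 and 8.27, 8.76 and 9.26 on siSCR arrays. In all of these genes the siGATA-3 and siSCR values overlapped.

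The order was shared widely in U-HO1. On siSCR replicate 3, 29 of the 32 genes lay above their own mean over the line, and on siGATA-3 replicate 3, 28 did, against 52.6% and 48.5% of all probe sets. On siGATA-3 replicate 2 only 3 lay above it and on siSCR replicate 1 only 6, against 50.6% and 48.2% of all probe sets. A replicate 3 array held the highest U-HO1 value of 28 of the 32 genes, against 32.1% of all probe sets, and siSCR replicate 1 or siGATA-3 replicate 2 held the lowest of 26, against 34.6%. The last 2 arrays were picked as those on which the set was most often lowest, so the count of 26 is high by choice and is no test. The replicate 3 arrays of U-HO1, and siGATA-3 replicate 3 of L-1236 below, were likewise singled out after their values were seen. Their counts, here and after quantile normalization, are no test either. The 4 genes that were highest elsewhere in U-HO1, named after their values were seen, were ABCG1, INSIG2 and ACLY on siGATA-3 replicate 1 and PMVK on siSCR replicate 2. SCAP and PMVK varied least, with SDs of 0.04 over the U-HO1 arrays. In L-1236, siGATA-3 replicate 3 held the highest value of 19 of the 32 genes, against 19.7% of all probe sets, and its siSCR partner of the same number held 2. INSIG1 read 10.17, 10.28 and 10.63 on siGATA-3 and 10.00, 10.46 and 10.35 on siSCR arrays of L-1236. ACAT2 had the widest range in L-1236, at 7.61, 8.11 and 8.70 on siGATA-3 and 8.03, 8.58 and 7.74 on siSCR arrays.

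The overall spread of values on an array moved with this order in part. The mean of the set was 9.12, 8.85 and 9.30 on siGATA-3 and 8.87, 9.03 and 9.33 on siSCR arrays of U-HO1. In L-1236 the mean of the set was 8.89, 8.92 and 9.15 on siGATA-3 and 8.87, 9.05 and 8.88 on siSCR arrays. In either line it was highest on the array with the widest spread. In U-HO1, however, siSCR replicate 1 had a low mean of 8.87 at a wide spread of 1.70. The SD over all probe sets was 1.70, 1.67 and 1.69 on siGATA-3 and 1.70, 1.65 and 1.71 on siSCR arrays of U-HO1, and 1.67, 1.68 and 1.72 on siGATA-3 and 1.62, 1.68 and 1.66 on siSCR arrays of L-1236. After quantile normalization, which makes these spreads equal, a replicate 3 array still held the highest U-HO1 value of 23 of the 32 genes, against 27.9% of all probe sets, and 10 of the 32 had an SD above that of 95% of probe sets. In L-1236 siGATA-3 replicate 3 then held 12 of the 32, against 15.2%. The mean deviation of the set on that array was then 0.10, against 0.19 as deposited. In L-1236, 2 of the 32 genes then had an SD above that of 95% of probe sets. A list of 14 interferon-response genes, which varied between arrays as well, averaged 7.91, 8.17 and 7.97 on siGATA-3 and 8.08, 7.85 and 7.93 on siSCR arrays of U-HO1, and 8.98, 9.88 and 8.26 on siGATA-3 and 7.75, 7.46 and 10.03 on siSCR arrays of L-1236. GATA3 in U-HO1 was 11.07, 10.12 and 10.22 on siGATA-3 and 11.24, 10.90 and 10.24 on siSCR arrays. The replicate 3 arrays and siGATA-3 replicate 2 lay near its lower end. The mean of the interferon-response list in U-HO1 was highest on siGATA-3 replicate 2 and siSCR replicate 1, the arrays where the set was most often lowest. It was 8.17 and 8.08 there, against 7.85 to 7.97 on the other 4 arrays of the line. Some markers of the cell type lists were also highest on these arrays. CD68 read 9.23, 10.18 and 9.32 on siGATA-3 and 10.11, 9.42 and 9.38 on siSCR arrays of U-HO1. It was the 1 of 5 monocyte or macrophage genes with both arrays above the other 4 of the line, and the mean of those 5 genes was 6.98 and 7.14 on these arrays and 6.82 to 6.93 on the other 4. The same held for TRAF1 and FSCN1 among 7 Hodgkin line markers, CD79A among 4 B-cell genes and 0 of 4 T-cell genes, against 10.4% of all probe sets. The part of any of these in the order was not tested.

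**Figure D3:**
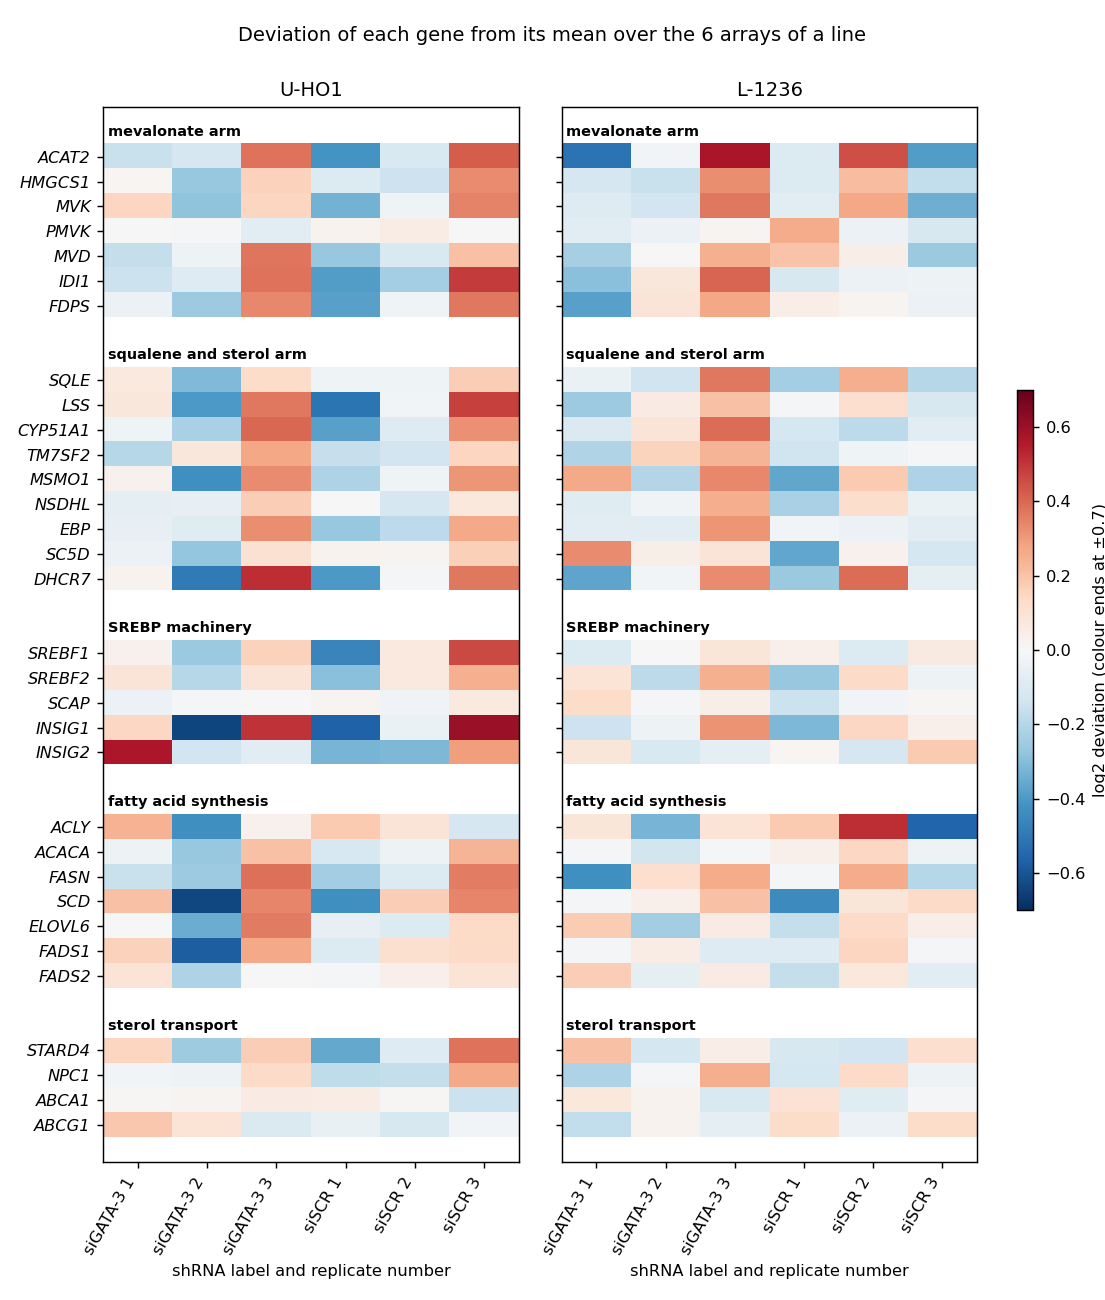
Deviation of each gene (rows, grouped by role) from its mean over the 6 arrays of U-HO1 (left) or L-1236 (right) in log2 units, with red above and blue below the mean and the columns in the order siGATA-3 replicates 1 to 3, then siSCR replicates 1 to 3. In U-HO1 the columns siGATA-3 3 and siSCR 3 are red for 28 and 29 of the 32 genes.

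The promoter windows of a few genes of the set are shown: INSIG1 as the most variable gene in U-HO1, SREBF2 for its sterol element, and STARD4 and FADS1 as the largest differences between the lines. The sequences are those of RefSeq, 5′ to 3′ on the strand of the gene, and give the 250 bases before the annotated start of transcription. Capitals mark matches to the letters TCACCCCAC, a classical sterol regulatory element to which SREBPs bind, and to CCAAT, the box of the factor NF-Y that works with SREBPs at many promoters, each on either strand.
INSIG1, GRCh38.p14, chr7:155297628-155297877, plus strand: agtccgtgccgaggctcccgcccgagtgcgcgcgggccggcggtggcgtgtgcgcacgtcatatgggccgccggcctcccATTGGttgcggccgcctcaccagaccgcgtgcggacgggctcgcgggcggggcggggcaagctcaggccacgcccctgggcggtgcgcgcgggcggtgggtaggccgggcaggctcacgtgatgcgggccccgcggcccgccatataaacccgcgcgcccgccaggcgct
SREBF2, GRCh38.p14, chr22:41832855-41833104, plus strand: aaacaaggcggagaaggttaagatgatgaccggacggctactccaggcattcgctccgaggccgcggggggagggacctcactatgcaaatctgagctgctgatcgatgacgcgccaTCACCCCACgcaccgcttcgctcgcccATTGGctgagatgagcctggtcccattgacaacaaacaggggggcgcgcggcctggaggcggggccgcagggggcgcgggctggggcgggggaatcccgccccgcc
STARD4, GRCh38.p14, chr5:111512536-111512785, minus strand: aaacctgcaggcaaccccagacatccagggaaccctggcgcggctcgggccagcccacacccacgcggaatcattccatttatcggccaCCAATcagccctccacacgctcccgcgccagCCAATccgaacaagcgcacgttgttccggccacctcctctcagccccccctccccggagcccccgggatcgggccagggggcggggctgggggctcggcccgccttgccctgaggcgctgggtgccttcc
FADS1, GRCh38.p14, chr11:61817004-61817253, minus strand: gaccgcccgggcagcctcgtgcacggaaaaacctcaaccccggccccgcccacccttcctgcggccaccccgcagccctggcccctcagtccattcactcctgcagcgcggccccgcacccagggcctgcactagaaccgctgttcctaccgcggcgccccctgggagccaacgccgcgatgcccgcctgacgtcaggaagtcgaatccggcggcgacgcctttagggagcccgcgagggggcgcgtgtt

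The matches were counted in windows of 300 bases, 250 before and 50 after the start, on both strands. Such a window was found for 28 of the 32 genes. TCACCCCAC was present in 1 of the 28, SREBF2, where it begins 133 bases before the start, and in 0.535% of 27305 genes. CCAAT was present in at least 1 window of 19 of the 28 genes (67.9%), against 39.7% of all genes. STARD4 holds a pair of CCAAT boxes beginning 161 and 130 bases before the start, and the match in INSIG1 begins 170 bases before it on the other strand. FADS1 has neither set of letters in the 250 bases shown. A match describes letters in a window, and these counts are no test of binding. Whether the letters bear on the shared variation between arrays was not tested.

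The study compared siGATA-3 with siSCR arrays within each line, and no gene of the set was called there. By limma with Benjamini-Hochberg adjustment, 0 of the 32 genes had an adjusted p under 0.05 between siGATA-3 and siSCR arrays in U-HO1 and 0 in L-1236, where 0% of all probe sets did in either line. At an unadjusted p under 0.05 there were 0 of 32 in U-HO1, against 1.05% of all probe sets, and 1 of 32 in L-1236, against 4.77%. The study's selection rule took genes with a fold of 1.5 or more at a 25% false discovery rate. With the Benjamini-Hochberg value of the present limma fit as that rate, these limits were met by 0 of 32 in either line, against 0% of all probe sets. The study's own calculation of the rate was not repeated. The log2 differences ran from -0.14 to 0.24 in U-HO1 with a median of 0.01, and from -0.14 to 0.30 in L-1236 with a median of 0.03, against medians of 0.00 and -0.01 over all probe sets.

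The smallest p in U-HO1 belonged to ABCG1, INSIG2 and SC5D. ABCG1 read 6.93, 6.84 and 6.64 on siGATA-3 and 6.69, 6.63 and 6.72 on siSCR arrays of U-HO1, a difference of 0.12 (SE 0.09). INSIG2 read 8.22, 7.52 and 7.58 on siGATA-3 and 7.33, 7.34 and 7.95 on siSCR arrays, a difference of 0.24 (SE 0.20) that was 0.01 without siGATA-3 replicate 1, its highest array, and 0.44 without siSCR replicate 3. SC5D differed by -0.14 (SE 0.12) in U-HO1. The groups overlapped for these genes and indeed for all 32, where 3.79% of all probe sets had groups of 3 that did not overlap. In L-1236 the smallest p belonged to SC5D, SCAP and ABCG1. SC5D read 9.79, 9.50 and 9.55 on siGATA-3 and 9.10, 9.49 and 9.34 on siSCR arrays of L-1236. All siGATA-3 values were above all siSCR values, by a margin of 9.50 against 9.49; groups that did not overlap, in either direction, were found for 10.7% of all probe sets. The difference was 0.30 (SE 0.12, unadjusted p = 0.0306, adjusted p = 0.925). SCAP differed by 0.11 (SE 0.07) and ABCG1 by -0.14 (SE 0.09) in L-1236.

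The shRNA effect was also compared between the lines as an interaction. Of the 32 genes 0 had an adjusted p under 0.05, against 0% of all probe sets, and 1 had an unadjusted p under 0.05, against 2.46%. That gene was SC5D, whose effect in U-HO1 minus that in L-1236 was -0.44 (SE 0.17, unadjusted p = 0.0264, adjusted p = 1). The intervals bound what these arrays could show. For INSIG1 the 95% interval of the siGATA-3 effect ran from -0.67 to 0.67 in U-HO1 and from -0.58 to 0.75 in L-1236, for HMGCS1 from -0.43 to 0.31 and from -0.33 to 0.41, and for FASN from -0.50 to 0.46 and from -0.51 to 0.45. A rise of 1.5-fold lies inside the interval of INSIG1 in either line. These values compare labels between which GATA3 itself was not shown to differ.

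**Figure D4:**
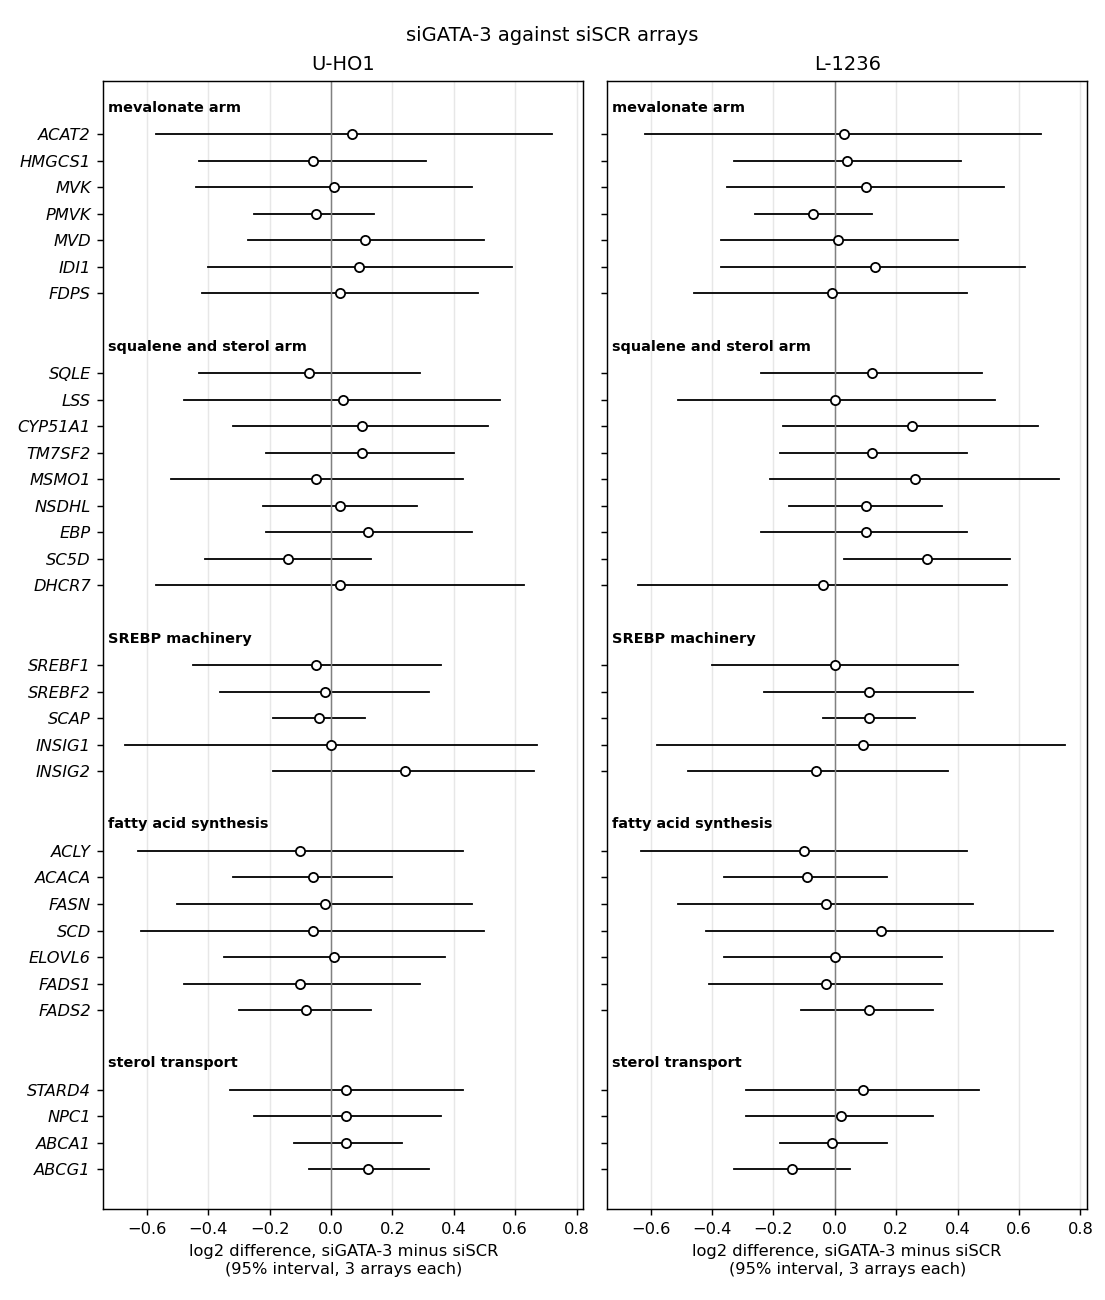
Log2 difference of each gene between siGATA-3 and siSCR arrays (x axis, siGATA-3 minus siSCR, 3 arrays each) with its 95% interval from limma, in U-HO1 (left) and L-1236 (right). Points lie between -0.14 and 0.30, and every interval reaches 0 except that of SC5D in L-1236, which starts at 0.03.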

How the data were processed

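The authors deposited 1 table of log2 values with 32321 probe sets on 12 one-colour arrays; it spans 3.86 to 13.99, and the log base is read from that range. The submitters' processing notes name R 2.8.1. How the authors corrected background, normalized and summarised probes is not given in the sources used here; array precision is limited by the number of arrays. Symbols came from the platform annotation: 19158 probe sets carry 1 symbol, 1388 several and 11775 are unnamed here, and 19128 matched a GRCh38.p14 gene table by Entrez identifier.

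From these values a linear model with a mean for each of the 4 groups was fitted to all probe sets (lmFit and eBayes of limma 3.58.1, R 4.3.3; 8 residual degrees of freedom; every probe set kept), with p-values adjusted by Benjamini and Hochberg over all of them. Contrasts were U-HO1 minus L-1236 averaged over both labels, siGATA-3 minus siSCR in each line, and the difference of these effects. GATA3 was tested by exact permutation. The fit was tested on simulated data. Genes described with their values are those called between the lines with a fold of at least 1.5, INSIG1, SREBF1, SREBF2, HMGCS1, SQLE, FASN, SCD and ABCA1 in any case, the 3 smallest p per line for the shRNA, and up to 4 other pathway genes each way. The members, lists and rules were chosen with earlier results of these data known. Alternatives were quantile normalization, centring, a filter on dim probe sets, a replicate block, a trended and robust prior, array weights, averaged probe sets, subsets of arrays and leaving out each array. The replicate numbers were checked for pairing by the correlation of deviations from group means, which was -0.17, 0.06 and 0.32 in U-HO1 and 0.17, -0.40 and -0.22 in L-1236 for numbers 1, 2 and 3. Over the genes of the set alone it was 0.03, -0.33 and 0.55 in U-HO1 and -0.07, -0.42 and -0.44 in L-1236. The numbers were not taken to pair the arrays. Whether the U-HO1 arrays of number 3 were handled together was not tested.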

Additional observations from a re-analysis of the deposited data

Results flagged for a closer look

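Over the 6 arrays of each line, 5 of 64 sets of values held an array set apart from the others beyond Dixon's 95% critical value, where chance flags about 1 in 20. FADS2 on U-HO1 siGATA-3 replicate 2 read 7.56, with the nearest other array at 7.76. ABCA1 on U-HO1 siSCR replicate 3 read 5.99, with the nearest at 6.15. EBP on L-1236 siGATA-3 replicate 3 read 9.92, with the nearest at 9.59, the widest relative gap of the 5 at 0.83 of the range. PMVK on L-1236 siSCR replicate 1 read 8.0, with the nearest at 7.76. SCD on L-1236 siSCR replicate 1 read 10.63, with the nearest at 11.06.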

How the results depend on the processing

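Of the 32 genes, 14 were called between the lines as reported. The count was 5 with a fold of at least 1.5 also asked, 5 on the siSCR arrays and 9 on the siGATA-3 arrays alone, which leave 3 arrays per line, and 11 to 15 with 1 array left out; it was 14 with the replicate block. For the other pathway genes the 18 calls became 7, 11 and 11, 15 to 20 with 1 array left out, and 20 with the replicate block. Calls for the shRNA and the interaction stayed at 0 under every alternative run, the replicate block and each left-out array included. Without the U-HO1 arrays of replicate number 3, chosen after seeing the data, 13 genes were called, 5 higher and 8 lower, against 8 and 6 as reported. Shares of all probe sets called under these alternatives are not given here, so no changed count is read as particular to the set. Of 14 called named differences, 10 kept direction and call under every alternative; HMGCS1, LSS, LIPA and SOAT1 did not, in each case without changing direction. Differences near 0 changed sign. INSIG1 was -0.05 after quantile normalization, -0.02 on the siGATA-3 arrays, -0.26 without the U-HO1 arrays of replicate number 3, and -0.13 to 0.18 with 1 array left out (-0.05, -0.03, -0.01 and -0.10 among them). SREBF2 was 0.01 on the siSCR arrays and -0.11 to 0.02 with 1 array left out. ABCA1 was -0.01 after quantile normalization, -0.03 on the siSCR arrays and -0.02 to 0.03 with 1 array left out, at 0.00 and -0.01 in between. The GATA3 difference in L-1236 was -0.07 after quantile normalization and -0.19 to 0.22 with 1 array left out, and in U-HO1 -0.62 to -0.10. The cause of these changes was not tested. Dim genes such as ABCA1 and ABCG1, and FADS1 in L-1236, are limited by a background that is not given.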
